A study of Mus musculus with 2 samples.

Results

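The cells described here were liver macrophages of the RES library that held transcripts of Arg1 or Spp1 together with those of complement C1q. Single-cell RNA was measured in CD45+CD11b+ leukocytes sorted from the livers of C57BL/6 mice, in a RES library (liver fibrosis resolved) and a Ctrl library (uninjured control). Each library pooled 5 mice and each group had 1 library, so no value below has a replicate check and no test between groups could be run. The sort keeps any leukocyte that carries CD11b, so monocytes, macrophages, some dendritic cells and natural killer (NK) cells can enter. The cells were selected on measured UMIs. A barcode was taken when it had at least 200 detected genes, at most 10% of its unique molecular identifiers (UMIs) from mitochondrial genes, at least 3 UMIs of Lyz2, at least 3 of Arg1 and Spp1 together, at least 3 of C1qa, C1qb and C1qc together, and none of Ncr1, Klrb1c or Cd79a. These conditions found 338 of the 4157 RES barcodes that passed the quality limits (8.131%, exact Clopper-Pearson interval 7.318 to 9.003%), out of 7969 barcodes in both libraries. The same conditions found 10 of 3446 barcodes in Ctrl (0.2902%, 0.1392 to 0.533%), 1 of which shares its barcode with a RES cell of the gate. The 338 RES cells are called C1q+ Arg1/Spp1 macrophages below.

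Macrophages in a healing liver take up dead cells and matrix and secrete factors that act on scar-forming cells. Arg1 encodes arginase, which splits arginine into ornithine and urea. Spp1 encodes osteopontin, a secreted phosphoprotein that binds integrins and CD44. C1qa, C1qb and C1qc encode the chains of C1q, which starts the classical complement pathway and tags apoptotic cells for uptake.

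The genes that chose the cells are given as a description only. On GRCm38, Arg1 lies at chr10:24915221-24927484 (minus strand) and Spp1 at chr5:104435118-104441050 (plus strand). The C1q genes are neighbours on the minus strand, C1qb at chr4:136880129-136886187, C1qc at chr4:136889804-136893065 and C1qa at chr4:136895917-136898803. The 338 cells held 3 to 877 UMIs of Arg1 and Spp1 together, with quartiles at 48.25, 103 and 184. They held 3 to 231 UMIs of the C1q genes, with quartiles at 11, 22 and 43. Only 5 of the RES cells lay just inside the Arg1 and Spp1 limit, with 3 to 4 UMIs, and 16 cells that met every other condition lay just outside it, with 1 to 2. Fn1 stood at 2917 CPM (a gene's summed UMIs scaled to the same standard total in every set) in those 5 cells against 1017 CPM in the 16, and Cd74 at 3884 against 13860 CPM. At the C1q limit 28 cells held 3 to 4 UMIs and 55 held 1 to 2. A further 29 cells missed the gate only through an Ncr1 or Klrb1c UMI, 21 of them with exactly 1, and 21 other cells missed it only through Cd79a.

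Arg1 was the commoner of the pair. Arg1 was seen in 335 of the 338 cells and Spp1 in 225 (66.57%), and 164 cells held at least 3 UMIs of each. Spp1 outnumbered Arg1 in 30 cells. Summed over the cells, Arg1 stood at 7353 CPM and Spp1 at 1941 CPM. The NK cells of the same library were taken as barcodes with at least 3 UMIs of Ncr1 and Klrb1c together, at most 2 of Lyz2 and none of Cd79a. They held 22.6 CPM of Arg1 and 24.4 CPM of Spp1, and up to 15 UMIs of both genes in a cell. Their C1q genes summed to 7.858 CPM, with up to 4 UMIs in a cell. The 28 cells with 3 to 4 C1q UMIs do not exceed that count. These levels were taken as what free RNA in the droplets can give, and transcription by the NK cells themselves was not tested. The 10 Ctrl cells of the same gate held 4776 CPM of Arg1 and 65.5 CPM of Spp1, and 3 of them had any Spp1 UMI.

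Most RES cells with C1q also carried Arg1 or Spp1, and most Ctrl cells with C1q did not. Of the cells with Lyz2 and C1q, 338 of 407 in RES held at least 3 UMIs of Arg1 and Spp1 (83.05%, 79.04 to 86.56%), against 10 of 121 in Ctrl (8.264%, 4.034 to 14.67%). No UMI of either gene was found in 53 of 407 cells in RES (13.02%), against 105 of 121 in Ctrl (86.78%). Few cells lay between, as the plot of the gate by cell shows. Read from the Arg1 and Spp1 side, 338 of 663 such cells in RES reached 3 C1q UMIs (50.98%, 47.1 to 54.85%) and 270 held none. Group and library cannot be told apart in this comparison.

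**Figure D1:**
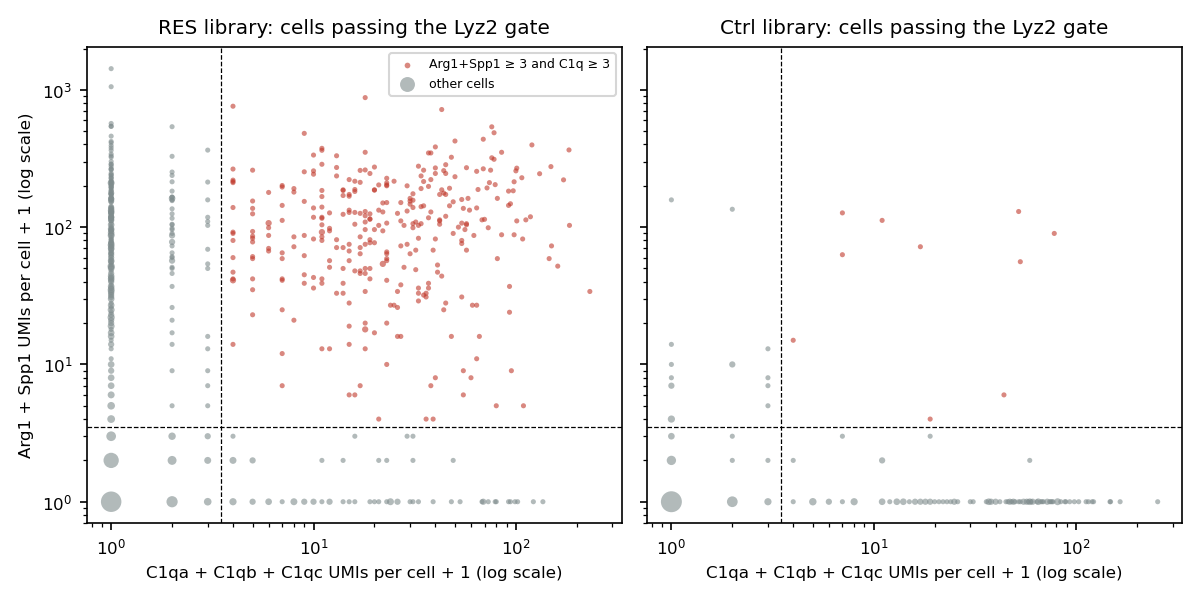
Arg1 plus Spp1 UMIs (vertical axis) against C1qa, C1qb and C1qc UMIs (horizontal axis) per cell, both plus 1 on log scales, for cells passing the Lyz2 gate in RES (left) and Ctrl (right); larger points hold more cells and dashed lines mark the limits of 3 UMIs. The 338 RES cells beyond both limits form a cloud with no counterpart of that size in Ctrl, where 10 cells pass.

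Comparison cells came from the same gates. The 53 RES cells with at least 3 C1q UMIs and none of Arg1 or Spp1 are called RES C1q cells without Arg1 or Spp1. The 325 RES cells with Arg1 or Spp1 and 0 to 2 C1q UMIs are called C1q-low Arg1/Spp1 macrophages. The 105 Ctrl cells with C1q and no UMI of Arg1 or Spp1 are called Ctrl C1q cells. Median depth was 12636.5 UMIs in C1q+ Arg1/Spp1 macrophages, against 9299 in RES C1q cells without Arg1 or Spp1, 11338 in C1q-low Arg1/Spp1 macrophages and 7931 in Ctrl C1q cells. A fixed UMI limit favours deep cells, so shares of cells are given after thinning each cell to 5000 UMIs, and levels as CPM over the summed UMIs.

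Being high in C1q held against the C1q-low cells and not against cells with C1q and no Arg1 or Spp1. The C1q genes summed to 2395 CPM in C1q+ Arg1/Spp1 macrophages, against 3464 CPM in RES C1q cells without Arg1 or Spp1, 6044 CPM in Ctrl C1q cells and 18.1 CPM in C1q-low Arg1/Spp1 macrophages. The 10 Ctrl cells of the same gate summed to 2053 CPM, and RES NK cells to 7.858 CPM.

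A barcode found in both libraries occurred 56 times. Of the C1q+ Arg1/Spp1 macrophages 21 shared a barcode with Ctrl, and in all 21 the Ctrl copy was shallower, with a median of 595 UMIs against 30002 in RES. Counts of genes without these cells are given beside each comparison.

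Macrophage markers stood above those of NK cells, and markers of resident Kupffer cells were nearly missing. The 6 macrophage markers summed to 2013 CPM, against 25.8 CPM in RES NK cells. They summed to 2048 CPM in RES C1q cells without Arg1 or Spp1, 1855 CPM in C1q-low Arg1/Spp1 macrophages and 2239 CPM in Ctrl C1q cells. Against RES C1q cells without Arg1 or Spp1, 1 was 1.5-fold higher and 2 lower (median log2 ratio -0.461). Against Ctrl C1q cells 1 was higher and 4 lower (-0.628). The growth factor receptor gene Csf1r stood at 494.6 CPM and Adgre1, which encodes F4/80, at 125.9 CPM, against 9.11 and 2.99 CPM in RES NK cells. The 7 Kupffer markers summed to 40.8 CPM, of which Cd5l gave 22.9 and Folr2 15.0, while Clec4f and Timd4 were each at 0.212 CPM, Marco at 0.423, Vsig4 at 0.635 and Cd163 at 1.48. The same markers summed to 61.1 CPM in RES C1q cells without Arg1 or Spp1, 86.5 CPM in Ctrl C1q cells and 13.9 CPM in C1q-low Arg1/Spp1 macrophages.

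The marker Trem2 was common and the marker Gpnmb was rare. Trem2, a lipid-sensing receptor of scar-associated and lipid-associated macrophages, was seen in 59.6% of thinned C1q+ Arg1/Spp1 macrophages (54.0 to 65.0%, 322 cells), against 45.5% of RES C1q cells without Arg1 or Spp1 (44 cells), 55.2% of C1q-low Arg1/Spp1 macrophages (290 cells) and 32.8% of Ctrl C1q cells (67 cells). RES NK cells gave 0.648%. Without thinning the shares were 85.8%, 58.5%, 74.2% and 41.9%, against 0.975% of NK cells. The summed Trem2 level was 230 CPM in C1q+ Arg1/Spp1 macrophages, against 152.8 CPM in RES C1q cells without Arg1 or Spp1 (log2 ratio 0.59, 95% counting interval 0.25 to 0.95). Gpnmb, a lysosomal and membrane glycoprotein gene, was seen in 26 of 338 cells, and 1 cell held 146 of its 214 UMIs. After thinning its share was 5.59% (3.35 to 8.69%), against 2.27% of RES C1q cells without Arg1 or Spp1, 3.79% of C1q-low Arg1/Spp1 macrophages and 5.97% of Ctrl C1q cells. RES NK cells gave 0 of 463 cells, which allows a share of up to 0.648%.

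**Figure D2:**
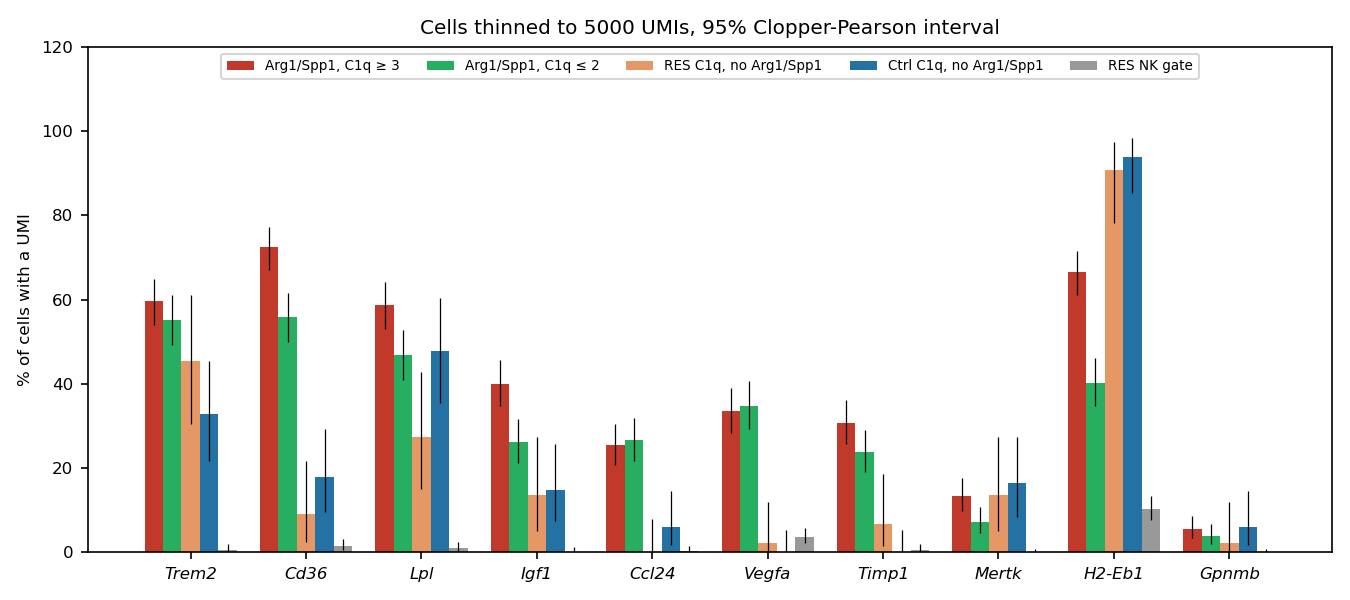
Share of cells with a UMI of each gene (vertical axis, %) after thinning to 5000 UMIs, with 95% Clopper-Pearson intervals, in C1q+ Arg1/Spp1 macrophages (leftmost bar), C1q-low Arg1/Spp1 macrophages, RES C1q cells without Arg1 or Spp1, Ctrl C1q cells and RES NK cells. Cd36 was seen in 72.4% of the C1q+ Arg1/Spp1 macrophages against 9.09% of RES C1q cells without Arg1 or Spp1, while H2-Eb1 was seen in 66.5% against 90.9%.

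The comparison the gate itself defines sets C1q+ Arg1/Spp1 macrophages against RES C1q cells without Arg1 or Spp1, within 1 library. Most glycolysis and hypoxia genes and most cytoskeletal genes were higher, and most MHC genes were lower. Of 6328 genes with at least 20 CPM in either set, 1188 (18.8%) were at least 1.5-fold higher and 1137 (18.0%) at least 1.5-fold lower. Without the barcodes shared with Ctrl the counts were 1186 and 1193, and with TMM scaling, which trims extreme genes to set the scale, 1393 and 986. A gene can reach the floor through 1 set alone and then had to differ, so counts over a list are also given for its genes at 20 CPM in both sets. The intervals below cover counting error only, since cells of 1 library are not replicates and UMIs of 1 cell are not independent.

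Single matrix, growth factor and chemokine genes were higher. Fn1, which encodes fibronectin, stood at 10190 CPM, against 959.6 CPM in RES C1q cells without Arg1 or Spp1 (log2 ratio 3.41, 3.28 to 3.54). It was seen in 99.7% of thinned C1q+ Arg1/Spp1 macrophages, against 54.5% of RES C1q cells without Arg1 or Spp1 and 20.3% of RES NK cells, the last taken as the free-RNA level. Vegfa, the vascular growth factor, stood at 108.4 CPM against 4.08 CPM, where the second value rests on 2 UMIs (log2 ratio 4.73, 2.87 to 7.78). Ccl24, an eosinophil-attracting chemokine, stood at 294.6 CPM against 1 UMI in the whole set of 53 cells (log2 ratio 7.18, 4.70 to 12.48). Ccl24 was uneven among the C1q+ Arg1/Spp1 macrophages, with UMIs in 131 of 338 cells and 46.3% of them in 10 cells. These genes were not particular to cells with C1q. Of the 325 C1q-low Arg1/Spp1 macrophages 321 had UMIs of Fn1, 151 of Vegfa and 109 of Ccl24. Their Ccl24 UMIs came to 1687, against 1392 in C1q+ Arg1/Spp1 macrophages. Of 5 measured matrix glycoprotein genes, all at 20 CPM in both sets, 3 were higher and none lower. Of 8 growth factor genes 4 were higher and none lower, but of the 6 at 20 CPM in both sets 2 were higher. Chemokines were divided, with 4 of 11 higher and 4 lower (3 and 4 of the 10 at 20 CPM in both sets). Tgfb1, the transforming growth factor, stood at 390.4 CPM against 387.1 CPM (log2 ratio 0.01).

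Arginine handling did not move as a block. Slc7a2, a transporter of arginine and other cationic amino acids, had 473 UMIs (100.1 CPM) and none in RES C1q cells without Arg1 or Spp1, so it was at least 16.4-fold higher, taking 3 counts over the set as the limit a count of 0 allows. Sms, which makes spermine, was higher by 1.70 and Odc1, which turns ornithine into putrescine, by 1.28 on the log2 scale. Sat1, which acetylates polyamines, stood at -1.41, the creatine kinase gene Ckb at -2.18 and Ass1, which helps to remake arginine, at -1.28. Of 12 measured genes of the list 5 were higher and 3 lower. Of the 10 at 20 CPM in both sets 3 were higher and 3 lower.

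Lipid uptake and storage genes were mostly higher, with 7 of 12 lipid droplet and fatty acid genes higher and 1 lower. Of the 11 at 20 CPM in both sets 6 were higher and 1 lower. Cd36, a fatty acid and lipoprotein scavenger receptor, stood at 694.5 CPM against 44.8 CPM (log2 ratio 3.95, 3.35 to 4.63). Lpl, which releases fatty acids from lipoproteins, stood at 924.8 CPM against 169.1 CPM (2.45, 2.14 to 2.78). Hilpda and Plin2, which coat or protect lipid droplets, were higher by 4.06 and 1.99. Apoe, the apolipoprotein, went the other way, at 2572 CPM against 8653 CPM (-1.75, -1.80 to -1.70). Of 19 measured scar-associated and lipid-associated macrophage genes 13 were higher and 2 lower, Apoe and the integrin gene Itgax (-1.70), with a median of 1.06, against 0.0263 over all genes tested.

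The glycolysis and hypoxia genes were higher with few exceptions. Of the 20 genes on this list 18 were at least 1.5-fold higher, none lower, and all 20 ratios lay above 0, with a median of 1.49. Of the 16 at 20 CPM in both sets 15 were higher. The glycolytic enzyme genes Pgk1 (778.6 CPM against 205.8 CPM), Tpi1 (618.4 against 171.1) and Ldha (861.3 against 285.2) were higher by 1.92, 1.85 and 1.59 on the log2 scale. Bnip3, a mitophagy gene that low oxygen induces, stood at 135.0 CPM against 8.15 CPM (4.05, 2.69 to 5.93). Ero1l, an oxidase of protein folding, stood at 180.1 CPM against 22.4 CPM (3.01, 2.16 to 4.01). AA467197, which is outside that list and ranked 3 among all genes by the naming rule, stood at 535.2 CPM against 22.4 CPM (4.58, 3.74 to 5.58). It had UMIs in 192 of 338 cells and in 164 of 325 C1q-low Arg1/Spp1 macrophages.

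The hypoxia-inducible factors bind a short core, and 4 promoters are printed to show where its letters occur in Spp1 and in genes that were higher. The letters searched were ACGTG and GCGTG, on both strands, in the 250 bases before each RefSeq start on GRCm38.p6, and capitals mark every match (the motifs can share bases where one follows the other, and a palindromic site counts on both strands). A match was present in 12679 of 32851 such windows (38.6%). Among the glycolysis and hypoxia genes 19 of 25 windows held one (76.0%, 18 of the 20 genes being in the table), and among the 12 genes ranked higher 4 of 14 windows did (28.6%, 9 of the 12 genes).
Spp1 promoter, chr5:104434861-104435110, + strand: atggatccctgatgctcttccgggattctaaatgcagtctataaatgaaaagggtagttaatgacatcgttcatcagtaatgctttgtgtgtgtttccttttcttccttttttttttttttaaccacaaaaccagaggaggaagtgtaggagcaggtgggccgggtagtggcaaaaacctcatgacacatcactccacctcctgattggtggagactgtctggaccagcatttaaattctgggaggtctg
Bnip3 promoter, chr7:138909507-138909756, - strand: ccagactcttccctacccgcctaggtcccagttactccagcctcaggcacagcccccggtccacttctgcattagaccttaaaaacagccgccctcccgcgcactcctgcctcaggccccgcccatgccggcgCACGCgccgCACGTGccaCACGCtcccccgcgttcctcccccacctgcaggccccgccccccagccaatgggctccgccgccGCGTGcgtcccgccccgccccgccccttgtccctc
AA467197 promoter, chr2:122637637-122637886, + strand: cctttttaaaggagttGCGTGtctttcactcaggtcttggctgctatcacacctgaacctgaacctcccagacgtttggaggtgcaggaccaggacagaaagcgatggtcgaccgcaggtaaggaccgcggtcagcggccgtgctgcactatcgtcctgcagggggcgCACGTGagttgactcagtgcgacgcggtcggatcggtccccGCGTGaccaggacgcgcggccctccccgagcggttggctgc
Hilpda promoter, chr6:29272376-29272625, + strand: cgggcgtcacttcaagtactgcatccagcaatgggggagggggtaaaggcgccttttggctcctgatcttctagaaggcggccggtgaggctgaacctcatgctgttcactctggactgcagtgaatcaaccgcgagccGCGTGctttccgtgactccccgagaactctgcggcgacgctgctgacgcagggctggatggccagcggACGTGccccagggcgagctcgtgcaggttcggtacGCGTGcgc
The Spp1 window held no match, the Bnip3 window held 5, the AA467197 window held 4 and the Hilpda window held 3. A match describes letters and says nothing of binding, and a second start of Spp1 and one of Hilpda in the table held none. On GRCm38 the gene span starts at 122636986 for AA467197 and at 29272488 for Hilpda, so the matches printed for both genes lie inside their spans. The 4 printed genes were picked and do not stand for the 12 ranked higher, whose share was below that of all windows.

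Cytoskeletal and membrane genes were also higher. Emp1, a membrane protein gene, Rhoc, a small GTPase gene, and Lmna, the nuclear lamin gene, stood at 279.8, 314.7 and 238.1 CPM, against 8.15, 14.3 and 12.2 CPM in RES C1q cells without Arg1 or Spp1. Their log2 ratios were 5.10, 4.46 and 4.28, and 9 of 11 measured genes of that list were higher, with none lower (5 of the 7 at 20 CPM in both sets). Rai14, an actin-binding protein gene, was higher by 3.86. Ltc4s, which makes leukotriene C4, stood at 372.0 CPM against 12.2 CPM (log2 ratio 4.93).

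**Figure D3:**
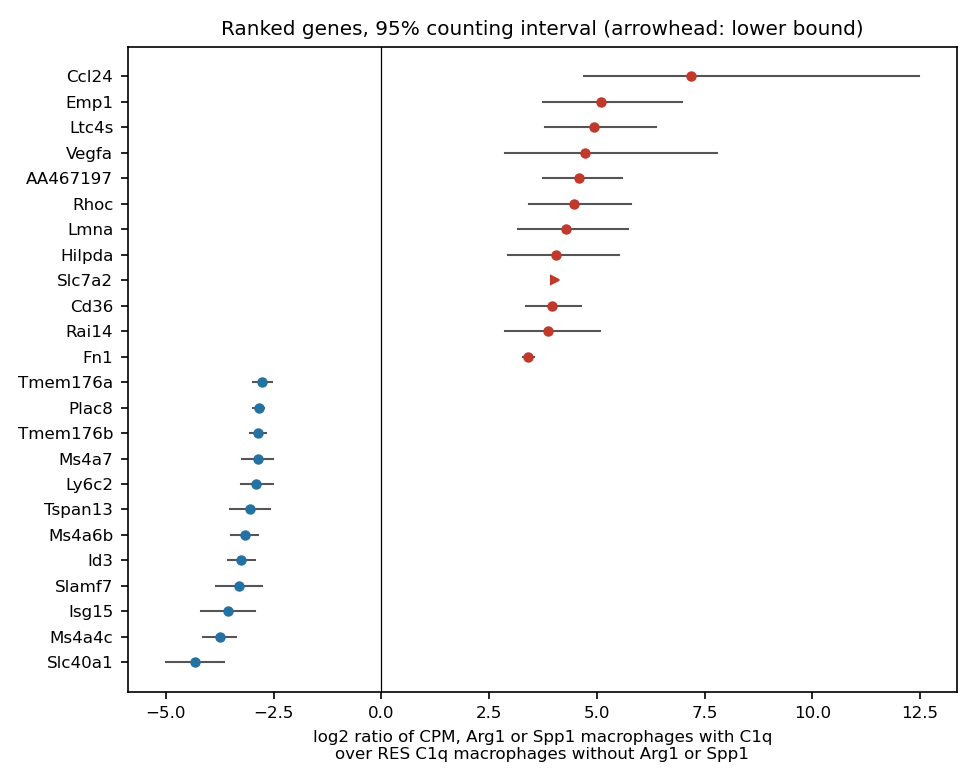
The 12 highest and 12 lowest genes by the naming rule (rows), as log2 ratio of CPM in C1q+ Arg1/Spp1 macrophages over RES C1q cells without Arg1 or Spp1 (horizontal axis), with 95% counting intervals; the arrowhead marks a lower bound for Slc7a2, which had no UMI in the second set. Intervals are wide for Ccl24 and Vegfa, which rest on 1 and 2 UMIs there, and narrow for Fn1.

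Antigen presentation genes were lower. All 9 MHC class II genes passed 1.5-fold on the lower side, and their median was -1.90; of the 7 at 20 CPM in both sets all 7 were lower. H2-Ab1 stood at 1597 CPM against 5974 CPM (-1.90, -1.97 to -1.84), and Cd74, the invariant chain that guides class II molecules, at 5019 CPM against 16040 CPM (-1.68). Ciita, the coactivator that turns these genes on, stood at 47.6 CPM against 232.3 CPM (-2.29, -2.62 to -1.95). Of 12 measured MHC class I genes 10 were lower, B2m among them (-0.83).

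Single interferon-induced genes were lower as well. The floor leaves little to count here, since 9 of 11 measured type I interferon genes and 4 of 7 interferon gamma response genes reached 20 CPM in RES C1q cells without Arg1 or Spp1 alone. Only 2 genes of each list reached it in both sets, and these were lower. Ifi27l2a, an interferon-induced gene, stood at 266.6 CPM against 1100 CPM, and Ifi204, which senses DNA, at 63.7 CPM against 205.8 CPM. Isg15, a ubiquitin-like protein, stood at 8.68 CPM against 101.9 CPM (-3.55, -4.19 to -2.93).

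Classical monocyte genes and an iron exporter were also on the lower side. Plac8 stood at 229.2 CPM against 1654 CPM (-2.85) and Ly6c2, the Ly6C gene of classical monocytes, at 29.2 CPM against 218.0 CPM (-2.90). Few of the 53 comparison cells carried these sums, since 10 cells held 66.6% of the Plac8 UMIs and 91.6% of those of Ly6c2. UMIs of Plac8 were in 148 of 338 cells against 41 of 53, and of Ly6c2 in 58 against 16. Of 6 classical monocyte markers 5 were lower and 1, the chitinase-like gene Chil3, was higher (1.75). Of the 5 at 20 CPM in both sets 4 were lower. Nonclassical monocyte markers were divided, with 3 of 6 higher and 2 lower, but 1 higher and 2 lower among the 4 at 20 CPM in both sets. Slc40a1, which encodes the iron exporter ferroportin, stood at 6.14 CPM against 122.2 CPM (-4.32, -5.01 to -3.65), and its UMIs came from 11 of 338 cells against 11 of 53. Of its UMIs in RES C1q cells without Arg1 or Spp1, 3 cells held 71.7%. Id3, a transcriptional inhibitor, stood at 37.9 CPM against 360.6 CPM (-3.25) and was seen in 51 of 338 cells against 30 of 53.

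Receptors and lysosomal genes differed gene by gene. Among 7 measured osteopontin receptor genes 4 were higher and 2 lower (4 and 1 of the 6 at 20 CPM in both sets). Cd44, the hyaluronan and osteopontin receptor, stood at 816.2 CPM against 311.7 CPM (1.39) and the integrin gene Itga9 at 5.93 CPM against 50.9 CPM (-3.10). Of 19 cathepsin and lysosome genes 7 were higher and 2 lower, among them the protease genes Ctsd (1.59) and Ctsl (1.93) on the higher side. Of 6 complement genes other than C1q 3 were higher and none lower, and C3ar1 and C5ar1, the receptors of the complement fragments C3a and C5a, stood at 1.09 and 1.12.

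Markers of other leukocytes moved with this comparison. The 5 markers of conventional dendritic cells of type 2 summed to 10.2 CPM in C1q+ Arg1/Spp1 macrophages, against 144.7 CPM in RES C1q cells without Arg1 or Spp1, and none of the 5 reached 20 CPM in C1q+ Arg1/Spp1 macrophages. The 7 T cell markers summed to 8.46 CPM against 73.4 CPM, and 8 NK markers to 67.5 CPM against 197.6 CPM. The 5 mast cell and basophil markers summed to 0.212 CPM, with 4 of them at 0, against 26.5 CPM. Their part in the result was not tested beyond leaving such cells out. With only cells that had no UMI of 16 dendritic, mast, T or B cell markers, 280 cells stood against 21, and the counts were 1473 higher and 1459 lower. The number of genes measured changes with the cells kept, so these counts are not shares. The list medians were 1.60 for glycolysis and hypoxia and -1.72 for MHC class II genes. Named genes moved too, with log2 ratios of 2.81 for Fn1, 3.67 for Ltc4s, 3.68 for AA467197, 2.82 for Rai14, 2.78 for Vegfa and 4.30 for Ccl24, a bound of 2.44 for Slc7a2, and -3.37 for Plac8 and -4.11 for Id3. The matrix glycoprotein median was then 0.76, against 1.52 with all cells, and that of the cytoskeletal genes 2.10, against 1.03.

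Set against C1q-low Arg1/Spp1 macrophages of the same library, far fewer genes differed. Of 5842 genes 103 (1.76%) were at least 1.5-fold higher and 85 (1.45%) lower. Without the shared barcodes the counts were 113 and 111. The glycolysis and hypoxia list had none of 20 past 1.5-fold, with a median of -0.19, and 1 of 19 scar-associated and lipid-associated genes was higher, Gpnmb, of whose 214 UMIs 1 cell held 146.

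Single genes of the MHC class II, clearance and cholesterol lists were higher, with 2 of 7, 2 of 10 and 2 of 12 measured genes past 1.5-fold. None was 1.5-fold lower. The clearance and cholesterol lists did not move as a whole, with medians of 0.0728 and -0.0976. Ratios above 0 were found for 6 of 10 and 5 of 12 of their genes. Of the 9 clearance genes at 20 CPM in both sets 1 was higher. Among the Kupffer markers Cd5l, a secreted scavenger protein, stood at 22.9 CPM against 4.45 CPM. Its UMIs came from 34 of 338 cells, and 10 cells held 73.1% of them. Cd5l was not higher than in other cells with C1q. Its log2 ratio was -0.0973 against RES C1q cells without Arg1 or Spp1 and -0.941 against Ctrl C1q cells. All 7 measured MHC class II genes had ratios above 0, with a median of 0.51. H2-Aa stood at 1837 CPM against 1199 CPM (0.61, 0.56 to 0.67), and H2-Eb1 was seen in 66.5% of thinned cells against 40.3%. Mertk, a receptor for dying cells, stood at 32.8 CPM against 13.6 CPM (1.27, 0.81 to 1.75) and was seen in 13.4% of thinned cells against 7.24%. Without thinning Mertk had UMIs in 83 of 338 cells. The counts were 16 of 53 RES C1q cells without Arg1 or Spp1 and 31 of 105 Ctrl C1q cells. Axl, a related receptor, stood at 176.9 CPM against 111.9 CPM (0.66, 0.49 to 0.83). It had UMIs in 208 of 338 cells, 33 of 53 RES C1q cells without Arg1 or Spp1 and 89 of 105 Ctrl C1q cells. Abca1, the cholesterol exporter, stood at 128.5 CPM against 71.9 CPM (0.84, 0.63 to 1.05), and Nr1h3, the sterol-sensing receptor LXR alpha, was higher by 0.64. Timp2, a metalloproteinase inhibitor, stood at 125.3 CPM against 55.4 CPM (1.18, 0.95 to 1.41), and Sdc3, a cell-surface proteoglycan, at 182.8 CPM against 87.9 CPM (1.06, 0.87 to 1.24). Without thinning Timp2 had UMIs in 194 of 338 cells. The counts were 17 of 53 RES C1q cells without Arg1 or Spp1 and 46 of 105 Ctrl C1q cells. For Sdc3 they were 244 of 338, 31 of 53 and 73 of 105 in the same sets.

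Monocyte genes were lower than in the C1q-low cells. Of 6 classical monocyte markers 5 were lower, with a median of -1.01 (4 of the 5 at 20 CPM in both sets). Ly6c2 stood at 29.2 CPM against 95.7 CPM (-1.71) and was seen in 10.6% of thinned cells against 21.4%, while RES NK cells, which transcribe Ly6c2 themselves at 608.8 CPM, give no background for it. Plac8 stood at 229.2 CPM against 530.6 CPM (-1.21, -1.32 to -1.10). Vcan, a matrix proteoglycan, and Slpi, a protease inhibitor, were lower too, at -0.90 and -1.27. The haemoglobin gene Hbb-bs stood at 8.89 CPM against 965 CPM, and 1 C1q-low cell held 3645 of its 3690 UMIs.

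**Figure D4:**
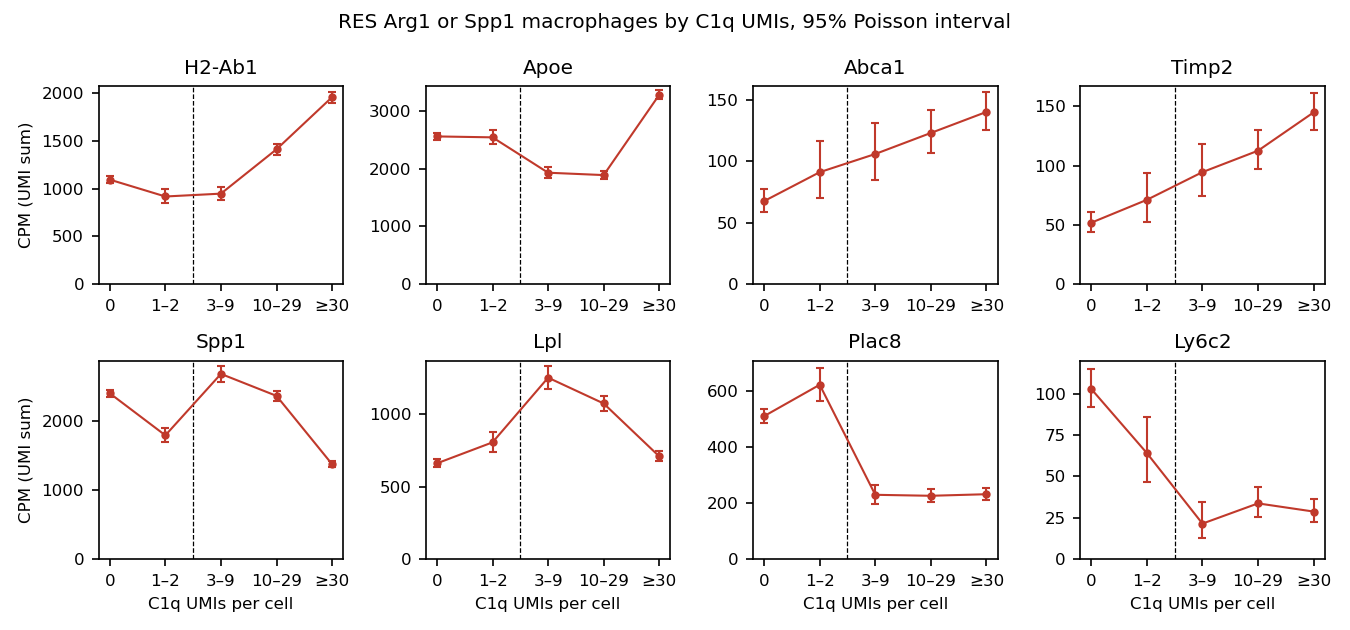
CPM of 8 genes (vertical axes, from 0) in RES Arg1/Spp1 macrophages by C1q UMIs per cell (horizontal axes), with 95% Poisson intervals; the dashed line marks the limit of 3 UMIs. H2-Ab1, Abca1 and Timp2 are highest at 30 or more C1q UMIs, while Plac8 is 510.1 CPM in cells with no C1q UMI and 229.4 CPM in cells with 3 to 9.

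The ladder of C1q UMIs splits C1q+ and C1q-low Arg1/Spp1 macrophages by a count that the gate uses, so its levels are a description. It had 270 cells with none, 55 with 1 to 2, 66 with 3 to 9, 136 with 10 to 29 and 136 with 30 or more. Timp2 stood at 51.9, 71.2, 94.5, 112.6 and 144.9 CPM along these classes. Abca1 stood at 67.6, 91.1, 105.9, 123.0 and 140.1 CPM. H2-Ab1 stood at 1093, 916.8, 946.7, 1410 and 1955 CPM, so it was higher only from 10 UMIs on. Plac8 stood at 510.1, 622.1, 229.4, 225.9 and 231.5 CPM, a step at the limit of 3. Median depth along the classes was 11253, 12143, 11421, 11427.5 and 15243 UMIs, so the last class was also the deepest, and the part of depth in these levels was not tested.

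Within the C1q+ Arg1/Spp1 macrophages themselves, the cells with 30 or more C1q UMIs differed from those with 3 to 9. This split also uses the C1q count of the gate, so it is a description and not separate evidence. Of 6100 genes 342 (5.61%) were at least 1.5-fold higher and 447 (7.33%) lower. All 7 measured MHC class II genes were higher, with a median of 0.94. Tmem176b, a membrane channel gene of antigen-presenting cells, stood at 153.6 CPM against 54.2 CPM (95% interval of the log2 ratio 1.04 to 1.99). Lpl stood at 707.5 CPM against 1250 CPM (-0.82, -0.94 to -0.71) and Timp1, a metalloproteinase inhibitor, at 84.0 CPM against 157.6 CPM (-0.91, -1.24 to -0.57). Against the 270 cells with no C1q UMI, the same 136 cells had 203 of 5900 genes higher (3.44%) and 179 lower (3.03%), with 5 of 6 classical monocyte markers lower.

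Spp1 is part of the gate too, so a split of the cells by Spp1 is also a description. The 168 cells with at least 3 Spp1 UMIs were set against the 113 with none, at median depths of 12927.5 and 12630 UMIs. Of 5884 genes 164 (2.79%) were at least 1.5-fold higher and 125 (2.12%) lower. Gatm, which makes the creatine precursor from arginine, stood at 484.2 CPM against 244.0 CPM (0.99, 0.82 to 1.16), and Slc7a2 at 136.0 CPM against 68.1 CPM (0.68 to 1.33). The tetraspanin genes Cd63 and Cd9 stood at 210.9 and 461.5 CPM, against 114.3 and 290.2 CPM, and Ctsl, a lysosomal protease, at 504.5 CPM against 290.2 CPM. Of 7 measured MHC class II genes 6 were lower, with a median of -0.76, H2-Ab1 standing at 1260 CPM against 2157 CPM. The monocyte-attracting chemokine gene Ccl2 stood at 70.3 CPM against 218.3 CPM (-1.63, -1.91 to -1.37), with 70.0% of its UMIs in all C1q+ Arg1/Spp1 macrophages coming from 10 cells. Arg1 itself stood at 8249 CPM against 6253 CPM.

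The amount of Arg1 and Spp1 is part of the gate, so levels along it are a description. With 3 to 29, 30 to 99 and 100 or more UMIs of both genes (46, 118 and 174 cells), Fn1 stood at 5866, 10110 and 10970 CPM. Slc7a2 stood at 23.1, 41.1 and 144.1 CPM and Hilpda at 69.3, 141.9 and 259.1 CPM. H2-Ab1 ran the other way at 2730, 1939 and 1225 CPM, and Plac8 at 569.1, 271.5 and 149.1 CPM. Median depth was 10834.5, 11907 and 14650 UMIs in these classes.

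Retnla, a marker of alternative activation, shows how few cells can carry a sum. It stood at 303.9 CPM in cells with Spp1 against 75.8 CPM in cells without (95% interval of the log2 ratio 1.72 to 2.30). Over all C1q+ Arg1/Spp1 macrophages its 961 UMIs came from 31 of 338 cells, and 3 cells held 56.9% of them. In Ctrl C1q cells 1 cell held 592 of 750 UMIs.

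The cells were last set against Ctrl C1q cells, where library and group cannot be told apart. Of 6357 genes 1303 (20.5%) were at least 1.5-fold higher and 1223 (19.2%) lower. Without the shared barcodes the counts were 1292 and 1273. The trimmed-mean (TMM) factor between the summed profiles was -0.105 on the log2 scale, and with it the counts were 1572 higher and 1031 lower. Both C1q comparisons share the same 338 cells, so their values are given side by side and not as separate evidence.

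Single matrix and growth factor genes stood high, while chemokines were divided, with 6 of 13 higher and 6 lower. Of the 9 chemokines at 20 CPM in both sets 4 were higher and 4 lower. Fn1 was at 10190 CPM against 488.8 CPM in Ctrl C1q cells (4.38, 4.24 to 4.53). Timp1 and Vegfa had 589 and 512 UMIs and none in Ctrl C1q cells, so they were at least 34.1-fold and at least 29.6-fold higher. Thbs1, a matrix glycoprotein gene, stood at 158.5 CPM against 4.88 CPM (5.02, 3.66 to 6.90), although it stood at 154.8 CPM in RES C1q cells without Arg1 or Spp1 (0.03). In that last set 3 of 53 cells held 84.2% of its UMIs. Thbs1 had UMIs in 9 of those 53 cells, against 115 of 338 C1q+ Arg1/Spp1 macrophages. Olr1, a receptor for oxidized lipoprotein, stood at 211.6 CPM against 3 UMIs (5.85, 4.30 to 8.13). Of the 20 glycolysis and hypoxia genes 18 were higher and none lower, with a median of 2.16 (14 of the 16 at 20 CPM in both sets).

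Single interferon genes were lower than in Ctrl C1q cells. Of the 15 measured genes of each interferon list, 12 of the interferon gamma genes and 13 of the type I genes reached 20 CPM in Ctrl C1q cells alone, and the 3 and 2 that reached it in both sets were lower. Cxcl9, a chemokine that interferon gamma induces, had 2 UMIs against 625 (-10.81, -13.86 to -8.95), and those 625 came from 15 of 105 cells. Gbp2, a guanylate-binding protein gene, stood at 4.44 CPM against 281.6 CPM (-5.99, -6.71 to -5.34). All 8 measured MHC class II genes were lower, with a median of -2.14. Cd207, which encodes langerin, stood at 6.56 CPM against 151.2 CPM (-4.53), with UMIs in 2 of 338 cells against 16 of 105.

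Markers of other leukocytes moved with the comparison to Ctrl as well. NK markers summed to 67.5 CPM in C1q+ Arg1/Spp1 macrophages against 535.2 CPM in Ctrl C1q cells, cDC2 markers to 10.2 against 103.6 CPM, plasmacytoid dendritic cell markers to 150.5 against 476.7 CPM and migratory dendritic cell markers to 6.56 against 47.5 CPM. Their part in the interferon and MHC values was not tested, beyond the counts of 1437 higher and 1548 lower without cells bearing the 16 markers. Here too the number of genes measured changes with the cells kept.

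**Figure D5:**
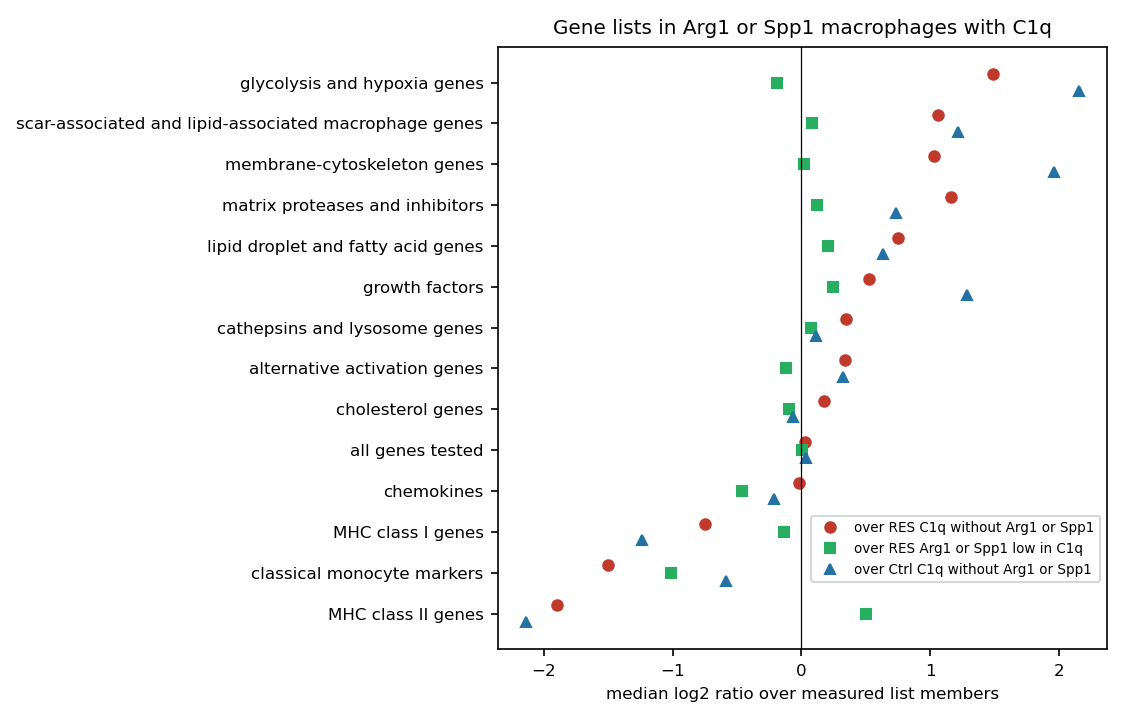
Median log2 ratio over the genes of each list that reached 20 CPM in either set (horizontal axis) for C1q+ Arg1/Spp1 macrophages over RES C1q cells without Arg1 or Spp1 (circles), C1q-low Arg1/Spp1 macrophages (squares) and Ctrl C1q cells (triangles). The glycolysis and hypoxia list sits at 1.49, -0.19 and 2.16, and the MHC class II list at -1.90, 0.51 and -2.14.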

How the data were processed

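The deposited files were gene-by-barcode matrices of UMI counts, 1 per library, made by the authors with Cell Ranger 3.1.0 per the file headers, on mm10 per the submitters' processing notes; reads came from a 3' droplet kit per the labels. The counts were used as deposited. Libraries held 34119806 UMIs in 4278 barcodes (RES) and 20379164 in 3691 (Ctrl), of which 4157 and 3446 passed (200 or more genes, 10% or less mitochondrial).

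Gated cells were summed and given as CPM. Log2 ratios carry exact conditional binomial intervals at 95%, shares Clopper-Pearson intervals; both cover counting error only. With 1 library per group no test was run; a call is 1.5-fold among genes at 20 CPM in either set, and a 0 was bounded at 3 counts. Named genes are the top 12 in each direction after adding 10 CPM (pseudocount) to both sums, from genes reaching 100 CPM, without gate, mitochondrial, ribosomal, haemoglobin and sex-linked genes, and up to 3 highest and 3 lowest per list; further list genes were named after their values were seen. The members and lists were chosen with earlier results of these data known. Scrublet (scanpy 1.11.5) marked 8 of the 338 cells at 0.8% per 1000 barcodes; none was removed. The code was checked on simulated data (numpy 2.4.6, scipy 1.17.1, matplotlib 3.10.9, python 3.11.15). Promoters are RefSeq's, on GRCm38.p6.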

Additional observations from a re-analysis of the deposited data

How the results depend on the processing

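Counts of genes depended most on the floor. At 100 CPM they were 338 higher and 268 lower against RES C1q cells without Arg1 or Spp1, 11 and 15 against C1q-low Arg1/Spp1 macrophages, and 401 and 337 against Ctrl C1q cells, since fewer genes were measured. With at least 3 UMIs in both sets in place of a floor, 2013 were lower against RES C1q cells without Arg1 or Spp1, 825 higher and 719 lower against C1q-low cells, and 2488 lower against Ctrl C1q cells. That limit is 0.635 CPM in C1q+ Arg1/Spp1 macrophages, 6.11 CPM in RES C1q cells without Arg1 or Spp1 and 3.66 CPM in Ctrl C1q cells. It therefore admits more genes on the lower side. The number of genes measured changes with the setting, so none of these counts is a share. With cells of 5000 to 15000 UMIs alone, 202 cells remained in the gate and the counts against C1q-low cells were 179 and 141. The gate held 240 cells after thinning to 3000 UMIs, 272 at 10 or more C1q UMIs, and 280 without cells bearing other markers, an alternative added after seeing the data, as was leaving out shared barcodes. The Trem2 share was 45.7% at 3000 UMIs and 85.8% unthinned in C1q+ Arg1/Spp1 macrophages, and 39.0% and 74.2% in C1q-low cells; the Gpnmb share at 3000 UMIs was 1.19% in C1q+ Arg1/Spp1 macrophages and 0.0% in RES C1q cells without Arg1 or Spp1.

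Of 1091 list medians recomputed, 56 changed sign, 51 of them medians under 1.5-fold, such as the nonclassical monocyte markers against RES C1q cells without Arg1 or Spp1 (0.58, but -0.44 without cells bearing other markers, -0.16 without shared barcodes and -1.32 at 5000 to 15000 UMIs). The other 5 were against Ctrl C1q cells: nonclassical monocyte markers at -0.25 with equal weight per cell, -1.16 at 5000 to 15000 UMIs and -0.42 without shared barcodes, arginine genes at -0.68 at the 100 CPM floor, and matrix proteases at -0.18 with 3 UMIs in both sets; the cause was not tested. No ranked gene changed sign among the 72 ratios recomputed in each setting. These had been ranked for their extreme ratios, so a change of sign was unlikely. Genes named from a list alone were not among them. No paired analysis was possible because each group has 1 library. The small sets limit precision: a count of 0 allows up to 6.11 CPM in the 53 RES C1q cells and 3.66 CPM in the 105 Ctrl C1q cells.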
